A study of Bos taurus with 8 samples.

Results

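Gene expression was followed from animal to animal in the lungs of 4 cloned Holstein calves. The genes described were those measured above background in every clone. An array probe entered when its spot was well above background on all 4 clone arrays, a call made by the scanner software, and each gene was represented by its brightest such probe. This gave 9245 genes of the 11054 that could be named on the array, and 5781 of them had at least 1 further probe that passed. The cloned calves had respiratory failure and died within 4 days of birth. A reference for the normal spread came from 4 naturally conceived, healthy Holstein calves killed at the age of 4 days, and their arrays served only as that reference. Each calf gave 1 lung RNA sample on 1 array labelled with the single dye Cy3, without technical repeats. The titles of the clone arrays carry the age label 4d, as do those of the normal arrays. Whether the clones came from 1 nuclear donor, at what exact age each of them died and which part of the lung was taken are not given in the sources used here.

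Cloning by nuclear transfer places the nucleus of a body cell in an egg cell from which the nucleus has been removed, and clones of cattle often die around birth with immature or fluid-filled lungs. Animals made from the same donor share their nuclear genome, yet their tissues can still differ in developmental stage, infection, stress before death and the state of chromatin. In the newborn lung such differences can reach genes of dividing cells, leukocytes, the acute response to injury and the vessel wall. The machinery of translation and respiration is needed by every cell.

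All levels below are log2 signals relative to the 75th percentile of the same array, so that a difference of 1 between calves is a 2-fold difference. Levels of different genes come from different probes and cannot be ranked against each other. When 4 values are given without names, they belong to clones 1, 2, 3 and 4 in that order. Spots called well above background made up 78.8% to 80.6% of the array in clones and 80.4% to 83.5% in normal calves. The tissue label was checked against markers of lung. The surfactant protein gene SFTPC lay between 7.44 and 7.95 in the clones, AGER of flat alveolar cells between 4.09 and 5.74, and PECAM1 of endothelium between 2.76 and 4.77, all well above background in every calf. All 4 clones were hybridised on 1 slide and all 4 normal calves on another, so slide and group cannot be told apart. Within the clone slide the positions 1 to 4 held clones 3, 1, 2 and 4. The 7 brighter spike-in controls, RNAs of known amount added to each sample, had means of 1.66, 1.68, 2.06 and 1.91 in clones 1 to 4. Once the common shift of each array was removed, the median SD of these controls between clone arrays was 0.027, each value being a mean over 32 spots. Single spots of 1 spike-in within an array had a median SD of 0.044, which is not comparable with the SD of such means. Clones 2, 3 and 4 had signal for DDX3Y and USP9Y, which lie on the Y chromosome, whereas clone 1 and the 4 normal calves had none well above background. Probes of the MHC class II genes BOLA-DQA5 and BOLA-DQB also differed between clones in detection (values below). As the donor is not given and Y-linked signal differed between clones, a difference between clones cannot be told apart from a difference of donor or sex in any SD below. The normal calves, which give the reference SD, did not differ in detection of DDX3Y and USP9Y.

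The lungs of the clones differed from each other far more than the lungs of normal calves did. The median gene had an SD of 0.51 over the 4 clones and of 0.15 over the 4 normal calves. The SD was larger in the clones for 8469 genes, or 91.6%, and the median ratio of the SDs was 3.27. In 1758 genes (19.02%) the highest and the lowest clone were at least 4-fold apart, against 100 genes (1.08%) in normal calves. An SD above 1 was found in 1370 genes of the clones and in 64 genes of the normal calves. The excess was present at every level of signal, with median clone SDs of 0.59, 0.61, 0.53, 0.48 and 0.41 in the 5 equal groups of genes from the dimmest to the brightest, beside 0.26, 0.17, 0.14, 0.12 and 0.11 in normal calves.

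**Figure D1:**
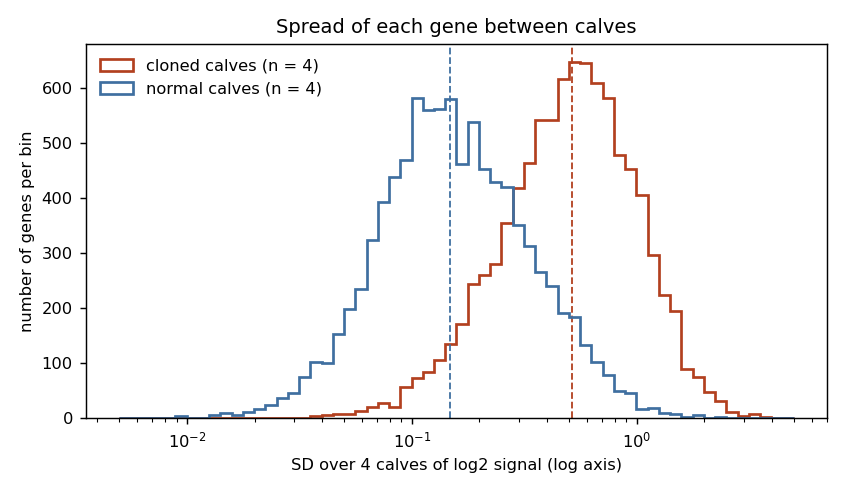
Number of genes (vertical axis) by the SD of their log2 signal over 4 calves (horizontal log axis), for the cloned calves in red and the normal calves in blue over the same 9245 genes. Dashed lines mark the medians, 0.51 in clones and 0.15 in normal calves, and the distribution of the clones lies further to the right.

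Each calf was given a single value for its distance from its group, the median over genes of its absolute deviation from the group mean. For clones 1 to 4 the distances were 0.42, 0.25, 0.44 and 0.25, and for normal calves 1 to 4 they were 0.10, 0.11, 0.11 and 0.079. Every clone lay further from its group mean than any normal calf did. Each mean includes the calf itself, so the 4 distances of a group are linked. Clones 2 and 4 differed from each other by a median of 0.165, inside the range of pairs of normal calves (0.130 to 0.190). Their distances of 0.25 thus depend on where the other clones placed the mean, and do not show that these clones lay apart from each other. The group means were 0.343 ± 0.104 (clones) and 0.0996 ± 0.0142 (normal calves) (SD, n = 4 each), a difference of 0.243 with p = 0.0286 in a 2-sided exact permutation test, which is the smallest p that 4 against 4 animals can give. With normexp background correction the difference was 0.106 and the exact permutation p 0.0857, so that the call was lost. The permutation test treats the linked distances of a group as independent, so its p is given as a description only.

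Gene by gene, the test of the spread depended on single animals. It compared the absolute deviations of clones and normal calves from their group means with limma, 2-sided, with Benjamini-Hochberg adjustment over 32114 probes at 0.05. The spread was larger in clones for 614 genes (6.64% of 9245) and smaller for 7 genes (0.0757%), while 3157 genes had an unadjusted p under 0.05 in either direction. The count of larger spreads was 0 by limma without clone 2 and 0 without clone 4, whereas it was 2166 without clone 1 and 1239 without clone 3. It was 0 with the trend and robust settings of limma and 6230 with a ratio of moderated variances, an alternative added after the data had been seen. In simulated data most probes that the test called had not been changed, so single calls are given as descriptions of these calves. The simulation changed the spread of only a small part of the probes, whereas here 91.6% of genes had a larger SD in clones. Its share of false calls therefore cannot be carried over, and that share is not known for these data. MYADM, a membrane protein first found in myeloid cells, was among the genes called. Its levels were 5.07, -0.73, 5.86 and -0.29 in clones and 5.80, 5.50, 5.11 and 5.66 in normal calves, with an adjusted p of 0.000619 by limma. Clones 1 and 3 were close to the normal calves and clones 2 and 4 far below them. BTNL9, a butyrophilin-like membrane protein, had the opposite order, with -5.48, -0.53, -5.16 and -0.36 in clones and between -5.67 and -4.78 in normal calves (adjusted p = 0.000144 by limma). RAB3C, a small GTPase of secretory vesicles, had the largest difference among the 7 genes with a smaller spread in clones, where it lay between -4.61 and -4.05, while normal calves ranged from -5.39 to -0.70.

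The 4 clones did not scatter evenly. The median absolute log2 difference over genes was 0.165 between clones 2 and 4, and 223 genes (2.41%) differed at least 2-fold between them. This pair lay inside the range of the 6 pairs of normal calves, 0.130 to 0.190. The other 5 pairs of clones differed by 0.573 to 0.735, with 27.4% to 36.9% of genes at least 2-fold apart, and the furthest pair was clones 1 and 3. Clones 1 and 3 were thus not alike, and each of them stood apart from clones 2 and 4 in its own way. Pairs of a clone and a normal calf differed by 0.321 to 0.582, and the 3 pairs that held clone 3 exceeded all 16 of them.

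**Figure D2:**
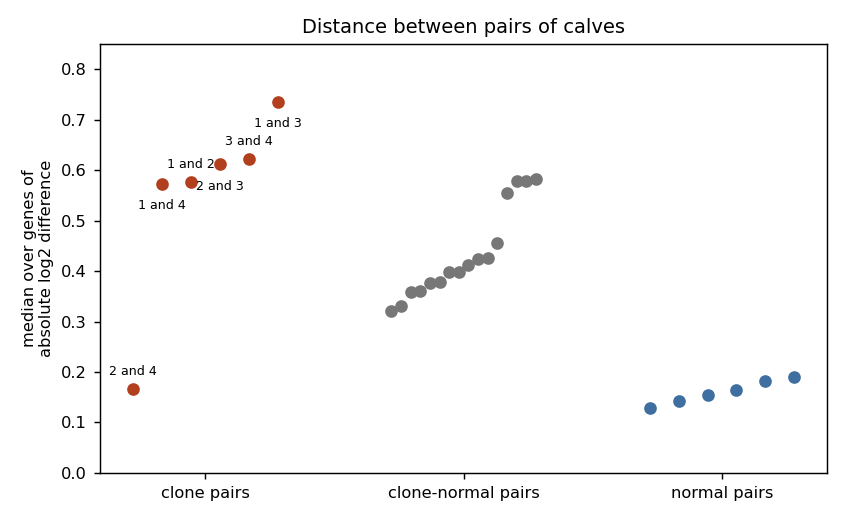
Median over 9245 genes of the absolute log2 difference (vertical axis) for each pair of calves, by kind of pair, with the clone numbers beside the points. The pair of clones 2 and 4 (0.165) lies among the pairs of normal calves, and the other 5 pairs of clones lie between 0.573 and 0.735.

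For every gene the clone furthest from the mean of the other 3 was recorded. It was clone 1 or clone 3 in 7820 genes. Clone 1 was furthest and higher in 20.9% of genes and furthest and lower in 19.6%, and clone 3 in 21.3% and 22.8%. Clone 2 was furthest in 3.07% (higher) and 4.27% (lower), and clone 4 in 4.31% and 3.76%. The difference of clones 2 and 4 carried 4.76% of the squared deviations of the clones from their means. The commonest order of the extremes was clone 1 highest with clone 3 lowest, in 18.6% of genes, followed by the reverse in 15%.

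The genes with the largest spread between clones reached differences of over 100-fold. The highest SD belonged to ALOX15, the lipoxygenase that makes 15-HETE and other lipid mediators in airway epithelium and eosinophils. Its levels were 5.16, -3.20, 2.10 and -2.40, a 329-fold range with an SD of 3.93, and normal calves also varied, with an SD of 1.98. Clones 1 and 3 were high and clones 2 and 4 low. EDN3, the vasoactive peptide endothelin 3, measured -4.48, 3.63, 2.66 and 3.51, a 276-fold range, beside -0.01 to 1.33 in normal calves. Clone 1 alone was low, below every normal calf, and the other 3 clones were above all of them. A second EDN3 probe had the same order between clone 1 and the rest.

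Several of the most variable genes followed the split seen for MYADM. GPX3, the secreted selenium-dependent glutathione peroxidase of plasma, had levels of 0.72, -4.68, -0.82 and -4.72 beside -1.35 to -0.55 in normal calves. Its other probe in all clones had a similar SD of 2.86. CXCL5, a chemokine that draws neutrophils, had 3.29, -0.77, 3.51 and -1.30. SLC11A1, a metal transporter of phagocyte vesicles, had 1.63, -2.64, 0.67 and -2.57 beside 1.11 to 1.72 in normal calves. In these 3 genes clones 1 and 3 lay above clones 2 and 4 without overlap. The opposite order was seen in PRSS12, a secreted serine protease, with -5.20, 0.52, -3.23 and 1.20, and in KCNA2, a voltage-gated potassium channel, with -5.63, -0.27, -3.48 and -0.15. GHRL, which encodes the hormone ghrelin, had -5.21, 0.08, -3.15 and 0.07, and its 3 probes ranged in SD from 1.55 to 2.75. The 3 genes were alike in that clones 2 and 4 differed from each other by less than 1 and stood above both other clones.

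Other genes were set apart by a single clone. Clone 1 was far above the rest in FGFBP1, a carrier of fibroblast growth factors, with 1.14, -5.88, -4.84 and -4.94, in CCL19, a chemokine that guides dendritic cells and T cells, with 2.19, -2.98, -2.02 and -3.75, and in JCHAIN, the joining chain of secreted antibodies, with 2.85, -1.99, -2.26 and -2.28. It was far below the rest in LIPC, hepatic lipase, with -5.05, -0.06, -0.56 and 0.62, and in SLC30A3, a zinc transporter, with -4.03, 0.82, 1.04 and 0.69. For SLC30A3 the normal calves spanned only -1.11 to -0.92. Clone 3 was the lone low calf for COX15, which makes the haem of cytochrome oxidase, with -1.72, -2.02, -6.10 and -2.01, and for OGG1, which removes oxidised guanine from DNA, with 0.57, -0.20, -3.70 and 0.23. The 3 probes of OGG1 had SDs from 0.89 to 1.98, so the size of its drop depended on the probe. Clone 4 stood out in MEOX1, a homeobox transcription factor, with -3.54, -4.18, -4.20 and 0.80, and clone 2 was the lone low calf for ANKRD1, a nuclear protein induced by stretch and injury (0.47, -3.28, 1.78 and 1.69).

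BOLA-DQA5, an alpha chain of the cattle MHC class II molecule DQ that presents peptides to T cells, had -0.52, 2.00, -4.82 and 2.14 in clones, and lay between -9.07 and -5.78 in normal calves. Another probe of the gene detected clones 1, 2 and 4 but neither clone 3 nor any of the 4 normal calves. For BOLA-DQB, the beta chain, the brightest probe varied far less, with 0.58, 2.84, 1.94 and 2.77, while 2 further probes were not well above background in clone 3. BOLA-DRA, the alpha chain of the DR molecule, had 3.54, 4.80, 4.52 and 4.80. Probes of the DQ genes thus differed among themselves in which calves they detected, whereas the 3 probes of BOLA-DRA had SDs of 0.577 to 0.599.

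Second probes were used to check the ranking. Of the 925 genes in the top 10% by SD, 477 had another probe above background in all clones. That probe was also above the bound of the top 10% in 314 genes (65.8%), against 8.11% of second probes over all genes, and in 390 genes it had the same clone furthest in the same direction. In the lowest 10% the second probe was below the lower bound in 279 of 636 genes (43.9%). The share over all second probes was not taken for this count or for the 390 genes. Second probes are dimmer by choice, and dimmer genes had larger SDs, so the shares of the top and lowest 10% cannot be compared. The SDs just inside the bound of the top 10% were those of FAM83D (1.1427) and NR4A2 (1.1422), and those just outside were VPS45 (1.1419) and CCL3 (1.1416). The bound of the lowest 10% was an SD of 0.195.

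**Figure D3:**
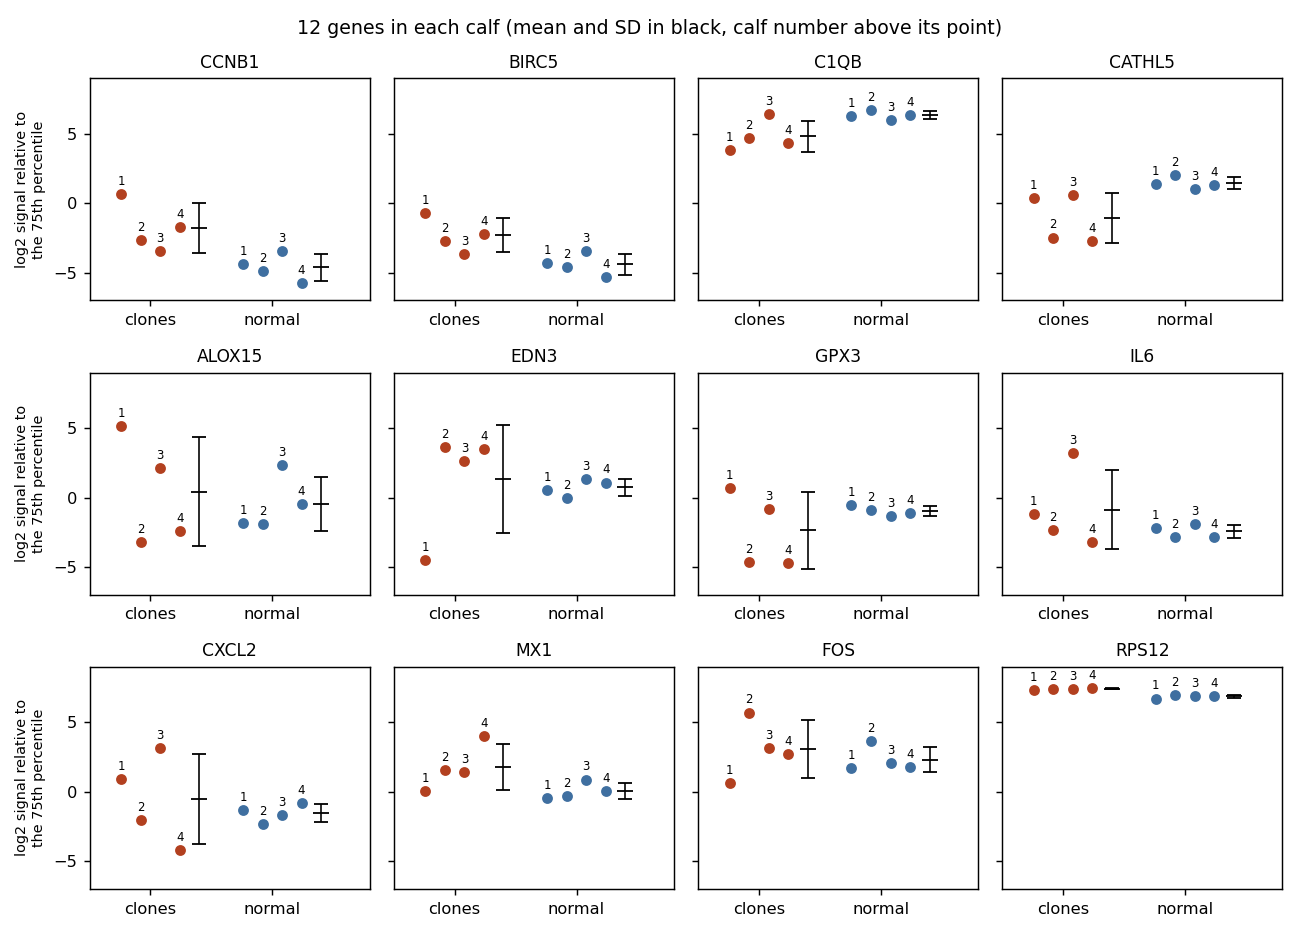
Log2 signal relative to the 75th percentile of the array (vertical axis) of 12 genes in each clone (red) and each normal calf (blue), with calf numbers above the points and the mean and SD of each group in black beside them. CCNB1 is highest in clone 1, MX1 in clone 4 and FOS in clone 2, while RPS12 hardly differs between clones. Levels of different genes are not comparable.

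Genes were then grouped into 53 lists by function or cell type, of which 51 had at least 5 measured members. By definition 10% of all genes lie in the top 10% and 10% in the lowest 10%. The lists with the largest median SD were mitosis (1.60), chemokines (1.41), acute phase proteins (1.41), erythroid genes (1.38) and cytokines with feedback genes of NF-kB (1.33). The lists with the smallest were cytosolic ribosomal proteins (0.149), oxidative phosphorylation (0.338), translation factors (0.343) and vesicle coats (0.348). Genes within a list are read in the same 4 animals, so these counts describe 4 lungs and carry no test.

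**Figure D4:**
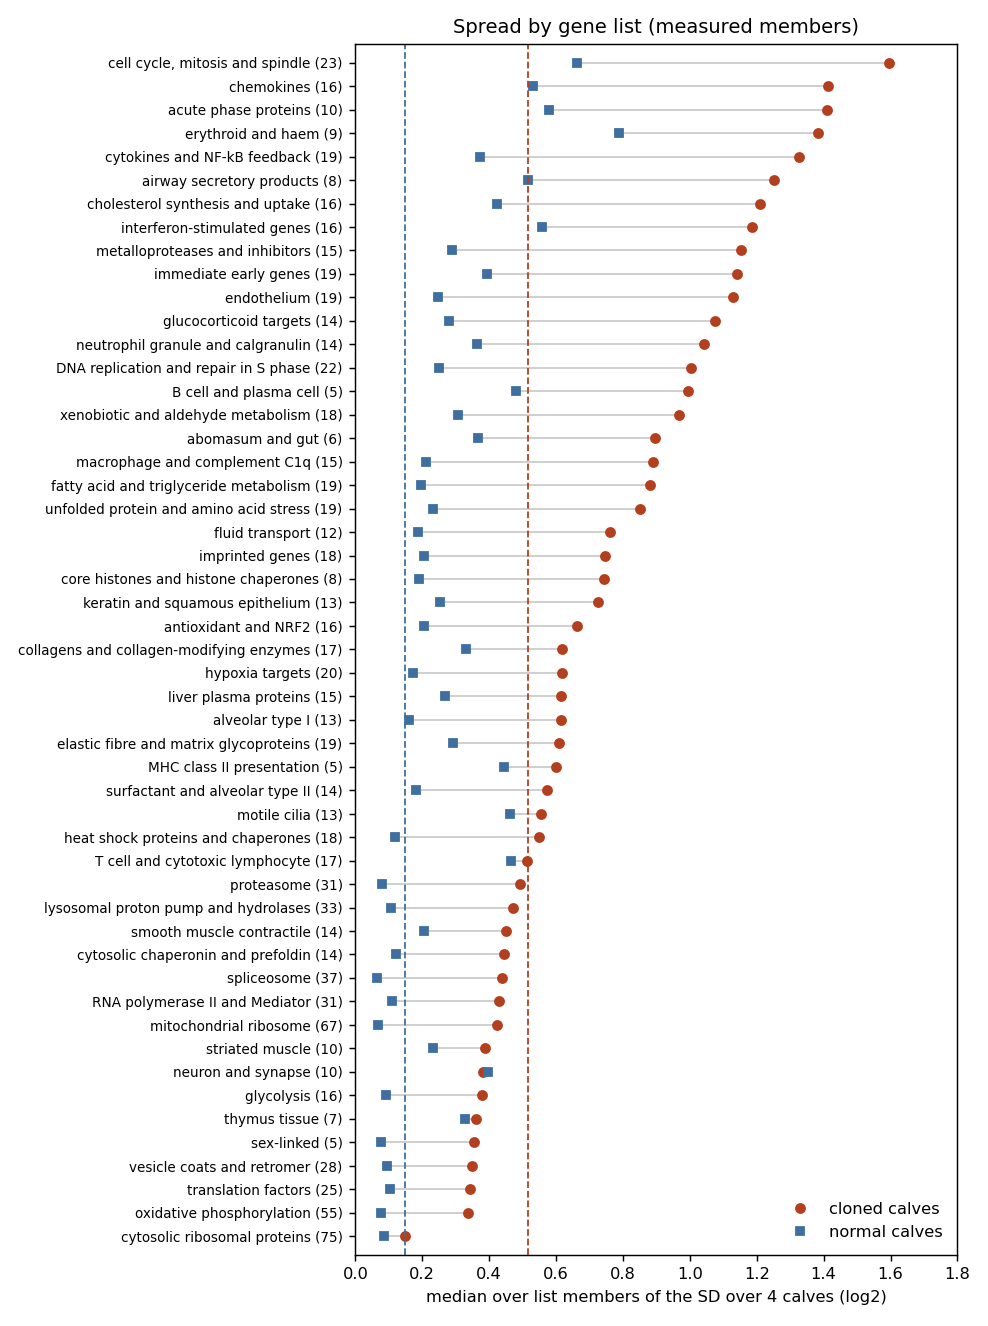
Median SD over 4 calves of the members of each list with at least 5 measured genes (horizontal axis, log2), for cloned calves (red circles) and normal calves (blue squares), with the number of measured members in brackets. Dashed lines are the medians of all genes, and the cell cycle list (1.60) lies highest and the ribosomal proteins (0.149) lowest in the clones.

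Genes of cell division had the largest median SD as reported, a rank that depended on clones 1 and 3. Of the 33 genes in the mitosis and spindle list 23 were measured, and of these 21 were in the top 10%, and all 23 had a larger SD in clones than in normal calves, against 91.6% of all genes. None (0 of 23) was called by the spread test with limma, against 6.64% of all genes. At that share few of 23 genes would be called, so the 0 does not set the list apart. The list had rank 6 of 51 without clone 1 and rank 8 without clone 3, and its members in the top 10% were 12 without clone 1 and 15 without clone 3. Clone 1 had the highest level of all 23 genes and clone 3 the lowest of 22, against 34.3% and 34.4% of all genes. The mean of the list was 0.77, -1.38, -2.87 and -0.76 in clones 1 to 4, and between -3.64 and -2.20 in normal calves. Clone 3 thus lay within the range of the normal calves and the other 3 clones above it. In whole tissue, fewer dividing cells and less RNA per cell cannot be told apart.

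CCNB1, the cyclin that takes cells into mitosis with its kinase CDK1, had 0.68, -2.67, -3.42 and -1.73 in clones and -4.38, -4.90, -3.44 and -5.74 in normal calves. Its SD of 1.78 had rank 173 among all genes, beside an SD of 0.96 in normal calves. Every clone was above every normal calf, although clone 3 and normal calf 3 were nearly level. BIRC5, or survivin, a subunit of the complex that oversees chromosome attachment, had -0.70, -2.72, -3.64 and -2.18, an SD of 1.23, beside -5.29 to -3.45 in normal calves. Clone 1 was the highest calf and clone 3 the lowest clone for both genes. The widest spread in the list was that of DLGAP5, a protein of spindle assembly, with -0.19, -2.43, -5.19 and -1.63. AURKB, the kinase partner of survivin, had -0.23, -2.27, -4.69 and -1.73, and CCNA2, the cyclin of S phase and early mitosis, had 0.31, -2.20, -4.27 and -1.44. These 3 genes kept the same order of the 4 clones as CCNB1.

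The order carried over to DNA replication. All 22 measured genes of 28 listed for DNA replication had a larger SD in clones, against 91.6% of all genes, and 8 were in the top 10%. Clone 1 was the highest clone for 21 of them and clone 3 the lowest for 19, against 34.3% and 34.4% of all genes. UHRF1, which directs the copying of DNA methylation, had 1.89, -1.11, -2.68 and -0.07. MCM5, a subunit of the replicative helicase, had 3.93, 2.12, 0.15 and 2.66. ASF1B, from the separate list of core histones and histone chaperones, is a histone chaperone of dividing cells and had 0.05, -2.86, -4.07 and -2.06. In each of these genes clone 1 was more than 4-fold above clone 3. The histone list as a whole did not share this order. Of its 8 measured of 10 listed genes 1 was in the top 10%. Clone 1 was highest for 4 of the 8, and clone 3 was lowest for 1 and highest for 3. Over all genes these shares were 34.3%, 34.4% and 32.5%.

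Genes whose levels followed the 2 mitotic markers most closely were found from the root mean square difference of their deviations from the mean of the 4 clones. For CCNB1 these were CENPW, a centromere protein, at 0.127, then ASF1B, CDK1, the spindle protein SKA1, the sterol demethylase CYP51A1 and the leukocyte receptor LILRA4, up to 0.289. For BIRC5 they included the fatty acid transporter SLC27A4 at 0.040, the alkaline phosphatase ALPL, the cell cycle protein PRR11, the centromere protein CENPK and the thymidylate kinase DTYMK, up to 0.099. SLC27A4 had levels of 1.06, -0.89, -1.83 and -0.31, and ALPL had 3.34, 1.32, 0.22 and 1.72. Most of these genes serve cell division, while CYP51A1, LILRA4, SLC27A4 and ALPL do not belong to it, and with 4 calves many genes can share an order.

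The sterol pathway, which supplies cholesterol and is switched on when cells lack it, was high in clone 1. Clone 1 was highest for 15 of the 16 measured of 20 listed genes of cholesterol synthesis and uptake and furthest above the rest for 13 of them, against 20.9% of all genes, and 9 were in the top 10%. CYP51A1 had 1.92, -1.46, -1.62 and -0.51, NSDHL, a dehydrogenase of the same chain, had 0.63, -1.66, -3.28 and -1.20, and SQLE, squalene epoxidase, had 4.44, 1.47, 1.75 and 2.19. FDPS, which makes farnesyl pyrophosphate, had 4.35, 1.56, 1.00 and 2.04, beside 2.20 to 3.21 in normal calves. Clone 1 lay above the normal range of FDPS and the other 3 clones below it.

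**Figure D5:**
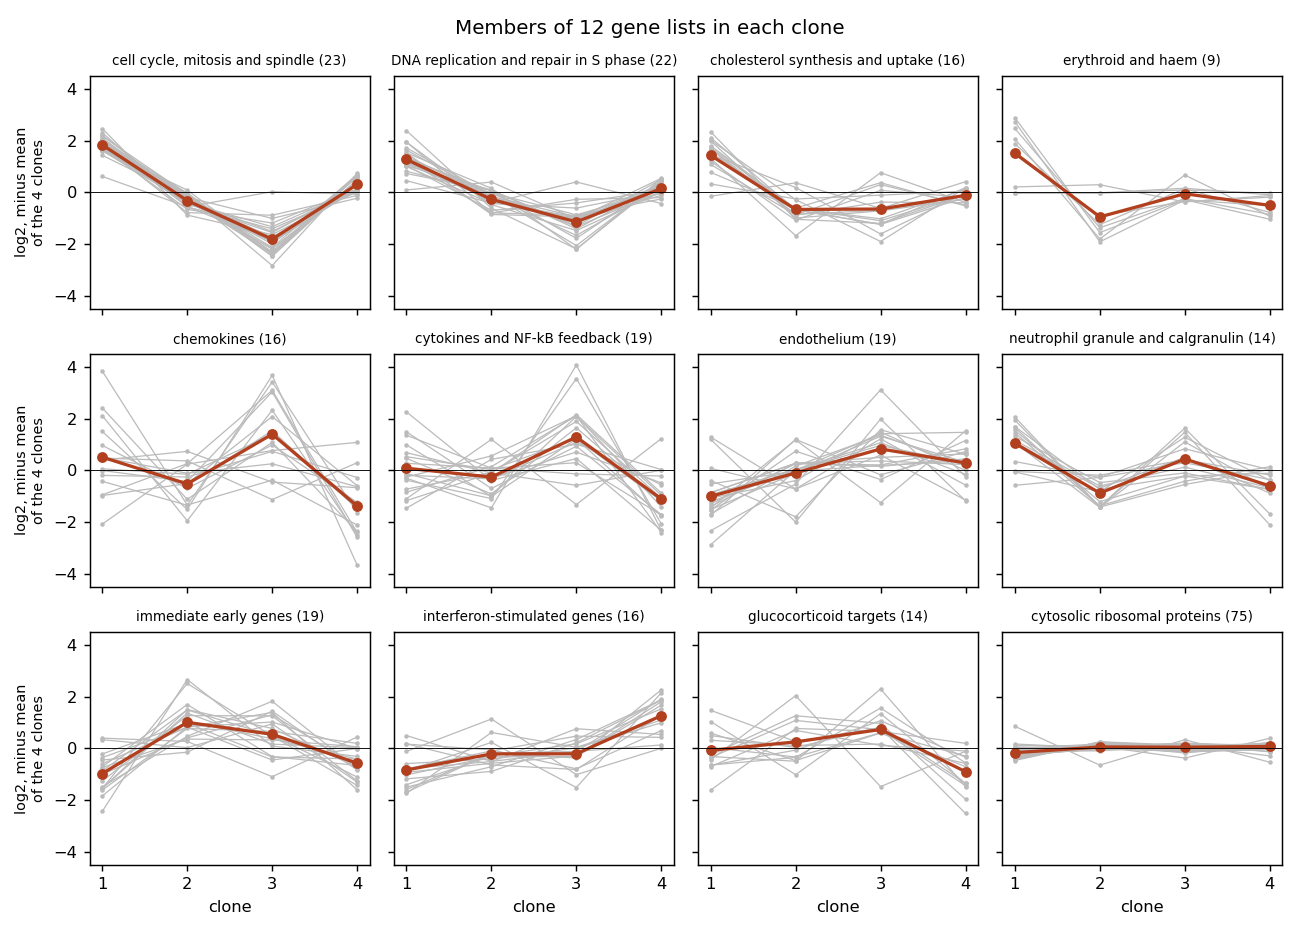
Log2 level minus the mean of the 4 clones (vertical axis) in clones 1 to 4 (horizontal axis) for the members of 12 lists, 1 grey line per gene and the list mean in red; lines only join the values of a gene, as clones have no order. Mitosis, replication and cholesterol genes are highest in clone 1, chemokines and cytokines in clone 3, immediate early genes in clone 2 and interferon-stimulated genes in clone 4, and ribosomal proteins stay near 0.

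Inflammatory signals were highest in clone 3 and lowest in clone 4. Of the 16 measured of 20 listed chemokines, which attract leukocytes, 10 were in the top 10%, clone 3 was highest for 10 and clone 4 lowest for 13, against 32.5% and 15% of all genes. Of the 19 measured of 24 listed cytokines and feedback genes of NF-kB, 14 were in the top 10%, clone 3 was highest for 13 and clone 4 lowest for 14. IL6, a cytokine that starts the acute phase response, had -1.17, -2.32, 3.202 and -3.18 beside -2.84 to -1.89 in normal calves, and both of its probes had an SD of 2.83 to 2.84. TNF had -3.86, -4.57, 0.07 and -5.54, and CXCL2, a chemokine for neutrophils, had 0.95, -2.06, 3.12 and -4.21. CCL8, which attracts monocytes, had 1.95, 1.03, 5.79 and 0.74. Clone 3 was the highest clone for all 4 of these genes. CSF2, a growth factor of granulocytes and macrophages, had another order and was highest in clone 1 (0.86, -1.79, -0.94 and -3.71), as was CCL19. ICAM1, the adhesion molecule by which leukocytes leave vessels, had 0.14, 1.21, 3.47 and 0.43 beside 1.40 to 1.76 in normal calves, so that clone 3 was above the normal range and the other clones below it.

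Acute phase proteins had list means of 0.430, -0.997, 0.211 and -1.833 and neutrophil genes of -0.486, -2.412, -1.094 and -2.131, so that both were lower in clones 2 and 4 than in the other clones. Of the 10 measured of 18 listed acute phase genes, 5 were in the top 10%. SAA3, a serum amyloid made in epithelium during inflammation, had 5.07, 1.23, 3.17 and -2.49, and SAA2 had 4.12, 0.07, 2.67 and -3.61. Normal calves varied for SAA3 as well, with 5.33, 3.71, 0.00 and 4.66, so that only clone 4 was outside their range. HP, or haptoglobin, which binds free haemoglobin, had -0.02, -4.66, -2.00 and -4.57, and CFB, complement factor B, was highest in clone 1 with 5.23, 0.55, 1.44 and 1.60. CATHL5, a cathelicidin peptide of neutrophil granules, had 0.39, -2.46, 0.56 and -2.75, an SD of 1.79, beside 1.06 to 2.06 in normal calves. All 4 clones were below the normal calves, and clones 2 and 4 furthest. CATHL2, another cathelicidin, had -1.21, -4.68, -1.80 and -5.37, and S100A9, a calgranulin of neutrophils and monocytes, had 3.31, -0.05, 0.82 and 1.39. In the list of neutrophil genes 7 of 14 measured were in the top 10%, clone 1 was highest for 9 and clone 2 lowest for 7, against 34.3% and 19.8% of all genes. The median SD of the 14 was 1.04. CXCR2, the neutrophil receptor for CXCL2 and CXCL5, had an SD of 0.285, and was picked after its value had been seen.

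The genes most like CATHL5 over the 4 clones were SDS, serine dehydratase, at a root mean square difference of 0.060, C4BPA, which restrains complement, IL27, a subunit of a cytokine of macrophages, CD14, the co-receptor for bacterial lipopolysaccharide, RAB15, a small GTPase, and ASMT of melatonin synthesis, up to 0.273. CD14 had 2.83, -0.48, 2.51 and -0.96 beside 0.10 to 0.42 in normal calves. Clones 1 and 3 were above all normal calves for CD14 and clones 2 and 4 below them. SDS had -0.42, -3.29, -0.31 and -3.45 beside -0.55 to -0.22 in normal calves, so that clones 1 and 3 were at the normal level.

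Macrophage genes did not share 1 order of the clones. Of the 15 measured of 20 listed members, 4 were in the top 10% and 2 in the lowest 10%. The spread test called 5 of the 15 larger in clones, against 6.64% of all genes, which is a description only. C1QB, a chain of the complement starter C1q made by tissue macrophages, had 3.84, 4.72, 6.40 and 4.34, an SD of 1.11, beside 6.01 to 6.71 in normal calves. Clone 3 was at the normal level and the other 3 clones were lower. CD163, the scavenger receptor for haemoglobin, had 1.70, -2.42, 0.32 and -2.64, and LGMN, a lysosomal protease, had 4.57, 2.53, 4.62 and 2.50. CD163, LGMN and CD14 were lower in clones 2 and 4, while C1QB was lowest in clone 1, and MS4A7, a membrane protein of macrophages, was lowest in clone 1 too (-2.35, 0.61, -0.58 and 0.56). The genes most like C1QB were the semaphorin SEMA4D at 0.067, EID3, TEX37, the corepressor TLE3, the scaffold protein TAMALIN and the deubiquitinase USP2, up to 0.131. None of them is a macrophage gene of the list, and what they shared was a high level in clone 3.

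Interferon-stimulated genes, the antiviral response, were highest in clone 4. Clone 4 was furthest and higher for 10 of the 16 measured of 27 listed genes, against 4.31% of all genes, and 9 of the 16 were in the top 10%. MX1, a GTPase that blocks influenza and related viruses, had 0.08, 1.57, 1.39 and 4.03 beside -0.43 to 0.88 in normal calves. RSAD2, or viperin, had -2.12, -1.03, -2.77 and 0.89, and OAS1Y, a sensor of double-stranded RNA, had 1.92, 3.32, 3.39 and 5.42. Clone 4 was above all normal calves for MX1, RSAD2 and OAS1Y. The 3 probes of MX1 had SDs from 1.63 to 1.68.

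Immediate early genes, which are transcribed within minutes of a stimulus, were highest in clone 2. Clone 2 was the highest for 12 of the 19 measured of 26 listed genes and clone 1 the lowest for 12, against 14.6% and 30.7% of all genes, and 10 were in the top 10%. FOS had 0.62, 5.71, 3.14 and 2.74, ATF3, a stress-induced repressor, had 0.60, 4.66, 2.63 and 0.72, and ZFP36, which destabilises cytokine mRNAs, had 1.56, 4.08, 4.08 and 1.56. IER3 was highest in clone 3 (0.32, 2.27, 3.63 and 1.01). In all 4 genes clone 1 was the lowest or level with the lowest.

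The targets of glucocorticoids, the hormones that ripen the lung before birth, were lowest in clone 4. Clone 4 was furthest and lower for 7 of the 14 measured of 18 listed genes, against 3.76% of all genes. FKBP5, a chaperone of the glucocorticoid receptor and a standard reporter of its activity, had 3.76, 2.55, 3.08 and -0.23 beside 3.47 to 4.05 in normal calves. ZBTB16, a transcription factor, had 1.34, 2.86, 2.56 and -0.37 beside 1.99 to 2.69. KLF15, another factor induced by these hormones, did not have this order (0.03, 2.51, -1.01 and 0.36), and clone 3 was its lowest.

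Clones 2 and 4 were the closest pair, and the lists in which they were apart ran in both directions. Over all genes 1.20% were at least 2-fold higher in clone 2 and 1.21% at least 2-fold higher in clone 4. Among immediate early genes 13 of 19 were at least 2-fold higher in clone 2 and 0 in clone 4. Among interferon-stimulated genes 11 of 16 were at least 2-fold higher in clone 4 and 1 in clone 2. Chemokines (6 of 16), cytokines and feedback genes (6 of 19) and glucocorticoid targets (5 of 14) also had members at least 2-fold higher in clone 2 and 0 in clone 4. Mitotic genes differed less, with 22 of 23 higher in clone 4, against 57.7% of all genes, and 0 of them by 2-fold. In proteasome, respiratory chain, mitochondrial ribosome and cytosolic ribosome lists 0 genes were 2-fold apart between these clones.

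Vessels, blood and epithelium also differed between clones. Of the 19 measured of 22 listed endothelial genes 9 were in the top 10%, and clone 1 was lowest for 15 and furthest and lower for 11, against 30.7% and 19.6% of all genes. APLNR, the apelin receptor, had 0.11, 2.98, 4.40 and 4.45, and EMCN, an endothelial sialomucin, had 0.05, 2.67, 0.25 and 3.02. FLT1, a receptor of vascular endothelial growth factor, was highest in clone 3 (-4.73, -2.93, 0.71 and -2.65), as was SELP, the selectin that endothelium and platelets show upon activation (0.03, -1.11, 4.18 and -0.07). ACKR1, the chemokine scavenger of venules, was 1 of 3 members lowest in clone 2 (-2.75, -5.95, -1.97 and -5.12).

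Clone 1 was highest for 6 of the 9 measured of 18 listed erythroid genes, against 34.3% of all genes. Members of this list were not alike in spread. Of the 9, 5 were in the top 10% and 2 in the lowest 10%, with SDs from 0.063 to 1.99. HBB, the adult beta globin, had 4.07, -0.57, 1.04 and 0.83, and ALAS2, the first enzyme of haem synthesis in red cells, had -0.44, -4.30, -1.83 and -3.42. Normal calves also varied, between -0.20 and 2.63 for HBB. Clone 1 was above their range for both genes, and clone 3 just above it for ALAS2 (normal calves -4.56 to -2.02). Among secretory products of the airway PIGR, the receptor that carries antibodies across epithelium, had 3.04, -2.22, -2.00 and -1.26 beside -0.06 to 0.37 in normal calves. CYP4B1, a monooxygenase of club cells, was low in clone 1 (0.37, 4.16, 4.24 and 4.91). KRT7, a keratin of simple epithelium, had 4.52, -0.09, 1.31 and 0.43, and TIMP1, the inhibitor of metalloproteases, had 6.23, 2.42, 3.83 and 2.48. Clone 1 was above all other calves for PIGR, KRT7 and TIMP1.

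Imprinted genes, which are expressed from 1 parental copy and are often disturbed in clones, had a median SD of 0.747 with 3 of 18 in the top 10%. H19, a maternally expressed RNA of fetal tissue, had 1.98, 5.14, 4.67 and 4.81 beside 2.78 to 3.12 in normal calves. Clone 1 was below the normal range and the other 3 clones above it. DLK1, a paternally expressed inhibitor of differentiation, had 1.94, 4.08, 4.82 and 2.55, and PHLDA2, a maternally expressed brake on placental growth, had -1.43, -3.14, -1.11 and -3.76. Surfactant and alveolar type II genes had a median SD of 0.574, close to that of all genes, with 2 of 14 in the top 10%. Clone 1 was highest for 12 of the 14 and clone 3 lowest for 11, against 34.3% and 34.4% of all genes. The widest of them was HHIP, a hedgehog inhibitor, with -4.33, -0.33, -1.62 and -0.22, and LAMP3, a lysosomal membrane protein of type II cells, had 3.86, 2.88, 1.19 and 2.71.

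The list with the smallest median SD was that of the cytosolic ribosome. Of the 75 measured genes of the cytosolic ribosome, 60 were in the lowest 10% and 0 in the top 10%. Without clone 3 the count in the lowest 10% was 20, and without clone 1 the median SD of the list was 0.067 in place of 0.149. RPS12 had 7.36, 7.44, 7.43 and 7.45, RPS21 had 6.79, 6.74, 6.71 and 6.71, and RPL7A had 7.47, 7.48, 7.44 and 7.54. The SDs of RPS12 and RPS21 were 0.038 in clones, below those of the same genes in normal calves (0.103 and 0.071), and that of RPL7A was 0.045. Over the whole list, though, 67 of 75 genes had a larger SD in clones, close to the 91.6% of all genes. RPL15 had the widest spread of the list, with 6.73, 5.23, 6.21 and 5.34, but its 8 probes had SDs from 0.04 to 0.72. These probes are among the brightest, where SDs are small. When each gene was ranked only against genes of similar level, 28 of the 75 were still in the lowest 10%. Clone 1 was the lowest for 62 of the 75 genes, but the list means of 6.72, 6.94, 6.93 and 6.96 differed little, and the lowest clone became clone 3 with quantile normalization, with the authors' values and with spike-in centring.

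Respiration and protein turnover had median SDs below that of all genes, at 0.338 for oxidative phosphorylation, 0.424 for the mitochondrial ribosome and 0.492 for the proteasome. Among genes of similar level, the median percentiles of their SDs were 42.1, 43.3 and 56.5. Oxidative phosphorylation and the mitochondrial ribosome were thus only slightly steadier than other genes of their brightness. The proteasome was not steadier than other genes of its brightness. The spread test called 8 of its 31 genes larger in clones, against 6.64% of all genes. These calls are descriptions only, as the share of false calls is not known for these data. Oxidative phosphorylation had 7 of 55 genes in the lowest 10% and 0 in the top 10%. The mitochondrial ribosome had 7 of 67 in the lowest 10% and 2 in the top 10%. The proteasome, which degrades tagged proteins, had 1 of 31 in the lowest 10%. These counts in the lowest 10% were near or below the share of all genes, which is 10% by definition. Clone 1 was highest for 45 of 55 genes of oxidative phosphorylation, 53 of 67 of the mitochondrial ribosome and 26 of 31 of the proteasome, against 34.3% of all genes. NDUFS1, a core subunit of complex I, had 1.53, 0.63, -0.71 and 0.88, and MRPS17, a small subunit protein of the mitochondrial ribosome, had 2.87, 1.16, -0.31 and 1.43. PSMA7, a proteasome core subunit, had 4.26, 2.73, 3.15 and 2.96 beside 3.70 to 3.82 in normal calves. COX5B of cytochrome oxidase was steady, with 4.82, 4.60, 4.73 and 4.68. Outside these lists the lowest SDs were those of CLP1, an RNA kinase of pre-mRNA cleavage, with -2.00, -2.04, -2.04 and -2.01, and LAPTM5, a lysosomal protein of leukocytes, with 4.22, 4.27, 4.29 and 4.29. CLP1 had another probe with an SD of 0.30, so its steadiness was not shared by all its probes.

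Some genes missed the rule because they were above background in only a part of the clones. There were 921 such genes, and 16 of them reached the 75th percentile in at least 1 clone. The following were picked from these 16 after their values had been seen. AGR2, a protein of mucus-producing cells, measured 3.83 in clone 1 and was not well above background in clones 2, 3 and 4. CSF3, the growth factor of neutrophils, measured 3.24 in clone 3, in the clone with the highest IL6, and -5.19 in clone 2, and was not well above background in clones 1 and 4. CX3CR1, the fractalkine receptor of monocytes, measured 0.10 in clone 2 and 0.57 in clone 4, -4.69 in clone 1, and was not well above background in clone 3. Among digestive enzymes, PRSS2, a trypsinogen, measured 2.55 and 2.65 in clones 2 and 4, -5.72 in clone 3 and -6.41 in clone 1, where it was not well above background. Normal calves were divided in the same way, with 2.35, 1.42, -6.05 and -5.76, so this spread was not particular to the clones. IL1R2, a decoy receptor of interleukin 1, measured 0.34 in clone 1 and -5.71 in clone 3 and was not well above background in clones 2 and 4.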

How the data were processed

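Per the file headers, the deposited scanner files came from Agilent Feature Extraction (version 10.7 per the submitters' processing notes) and hold a background-subtracted intensity per spot, which the authors had not normalized between arrays. The authors' deposited table of log2 values served as an alternative. Control spots and 2 to 21 outlier spots per array were left out, and no spot was saturated. The 75th percentile of an array was subtracted from its log2 intensities. Of 43653 probes, 32114 were well above background on all 4 clone arrays, and 19151 of those had a symbol through unversioned accessions of a bovine RefSeq table (ARS-UCD2.0). The array design names Btau_3.1, so no coordinates are given. Depth is limited by the number of arrays.

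Groups follow the sample titles. The spread test ran in limma (3.58.1, R 4.3.3) on absolute deviations times the square root of n/(n-1), and distances by an exact permutation test (scipy 1.17.1). Tested on simulated data, the spread test found few of the changed probes, and most of its calls were of unchanged ones. There most probes had the SD of the normal calves in both groups, unlike the data, so this share cannot be carried over. P-values compare the deviations of clones with those of normal calves, each group on its own slide. The deviations in a group share its mean and are not independent. The genes and lists were chosen with earlier results of these data known. Named genes were the 25 highest and 15 lowest SDs, CCNB1, BIRC5, C1QB and CATHL5 with the 6 most like genes of each, the 5 genes furthest above and below the others per clone, up to 4 members per list (for housekeeping lists also the 3 lowest), 12 genes of the spread test and the sex-linked genes; not all are printed, and some items are not reported here. Normexp used the median spot signal, since the files used here hold no mean signal.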

Additional observations from a re-analysis of the deposited data

Results flagged for a closer look

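In 4 values, a calf was picked out when its gap to the nearest other calf of its group exceeded Dixon's 95% limit for its share of the range of the group, which chance exceeds in about 1 of 20 groups. Of the 117 genes named and measured in all clones, 11 had such a clone and 6 such a normal calf. Over all 9245 genes the shares were 9.95% in clones and 6.62% in normal calves.

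Clone 1 lay apart and low in EDN3 at -4.48, SLC30A3 at -4.03, CYP4B1 at 0.37 and the imprinted RNA H19 at 1.98. It lay apart and high in FGFBP1 at 1.14 and JCHAIN at 2.85. Clone 3 lay apart and low in COX15 at -6.10, in VPS45, a regulator of vesicle fusion, at -2.11 and in the surfactant gene SFTPC at 7.44. Clone 2 lay apart in NR4A2, an immediate early nuclear receptor, at 2.33, and clone 4 in MEOX1 at 0.80.

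Among the normal calves, the lone values were -0.52 for OGG1, 2.77 for KRT7 and -3.55 for TNF in normal calf 1. In normal calf 3 the value was 1.99 for ZBTB16. In normal calf 4 they were 2.78 for H19 and 0.37 for PIGR.

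3 genes outside the rule reached the 75th percentile in a clone and were well above background in 0 of the 4 normal calves. LALBA, the milk protein alpha-lactalbumin, was highest in clone 1 at 3.43, and its other probe measured -8.08 there, so that its probes disagreed. DDX3Y was highest in clone 3 at 0.85 and USP9Y in clone 3 at 0.039.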

How the results depend on the processing

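The clones had the larger median SD under every alternative run, but with normexp more genes were called with a smaller spread in clones than with a larger one (below). The highest or lowest clone of some lists changed with the scaling, as for the ribosomal list, the macrophage list (highest clone 1 with spike-in centring) and oxidative phosphorylation (lowest clone 2 with median centring or normexp). With spike-in centring, normexp background and no filter, the median SD of normal calves was 0.204, 0.254 and 0.178 (0.148 as reported), and the median difference of clones 2 and 4 was 0.250, 0.138 and 0.198 (0.165 as reported). Normexp lowered the share of genes with a larger SD in clones to 67.9% and the difference in distance from the group to 0.106 (exact permutation p = 0.0857). Without 1 calf the share was 80.9% to 92.7% and the difference in distance 0.164 to 0.275, each with an exact permutation p of 0.0571, the smallest possible for 3 against 4. The cause of these changes was not tested.

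The count of 614 genes with a larger spread was 267 with spike-in centring, 929 with normexp, 217 with squared deviations, 0 with trend and robust settings of limma (3157 genes had an unadjusted p under 0.05 as reported) and 6230 with the variance ratio. Without 1 calf it ran from 0 to 2166. The count of 7 with a smaller spread was 1396 with normexp, 19 without a filter, 4 with squared deviations, 0 with trend and robust settings and 4 with the variance ratio, and ran from 0 to 25 without 1 calf. With the replicate number as a block the counts were 47 larger and 1 smaller; deviations of clones and normal calves with the same number correlated at 0.10, 0.13, -0.23 and -0.10 over genes, so they share only a number and the pairing has no basis.

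The ribosomal median SD was 0.067 to 0.170 without 1 calf (lowest without clone 1), and 20 to 63 ribosomal genes were in the lowest 10% (fewest without clone 3), or 28 when ranked within level. Without 1 calf 12 to 21 mitosis genes stayed in the top 10%, fewest without clone 1. Over the alternatives the mitosis list ranked 1 to 8 and the ribosomal list 49 to 51 of 51. Of 3984 values of single genes 341 moved by more than their leave-one-out error, as did 53 of 850 list values. Spike-in centring spread the median of all genes over the clones by 0.57 in place of 0.23, so directions are relative to the array. With 4 animals a group on 1 slide each, SDs are imprecise, and dim probes limit what was seen below background.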
